A study of Mus musculus with 12 samples.

Results

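The whole course of differentiation was followed in mouse embryonic stem (ES) cells whose Smchd1 gene had been deleted, by setting the 2 libraries of labelled day 8 against the 2 libraries of labelled day 1. These were 4 of the 12 libraries of the study, taken by their genotype and day labels, and the comparison ran across all 14063 tested genes. Smchd1 encodes a chromatin protein related to the structural maintenance of chromosomes (SMC) family, which is known for gene silencing on the inactive X chromosome and at clustered and imprinted genes.

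The cells were C57BL/6 and labelled male, and per the labels' protocols each ES line was grown out of 1 E3.5 blastocyst in 2i medium with LIF. Each line was then divided. The Smchd1 del/del cells carried MSCV-Cre-puro, a retrovirus with Cre and a puromycin resistance gene, and had been selected with puromycin. The Smchd1 fl/fl cells of the same lines were not transduced. Both were moved to serum with LIF, and differentiation began with removal of LIF and addition of Fgf2, followed by a Gsk3 inhibitor, an agent that activates Wnt signalling, and then by Gdf11, a TGF-beta family ligand. Cells were taken before differentiation (labelled day 1, which the protocol calls day 0), on day 5 and on day 8. The 6 groups, del/del at days 1, 5 and 8 and fl/fl at the same 3 days, held 2 libraries each, so every standard error below rests on groups of 2. Each group had 1 library from line 1 and 1 from line 3. In all pairs of values below, line 1 comes before line 3. Deletion, transduction and selection cannot be told apart here. Nothing in the sources used here says that libraries came from separate differentiations, so p-values measure the spread between these libraries.

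The stated aim of the protocol was neuromesodermal progenitors, which lie in the caudal embryo and supply both the spinal cord and the paraxial mesoderm. As background, ES cells are held in naive pluripotency by factors such as Nanog, Esrrb and Klf2, and pass through a primed state before they enter the primitive streak. Caudal progenitors are marked by T (brachyury) together with Sox2 and the Cdx genes. Hox genes are switched on along each cluster from the 3′ to the 5′ end as the body axis is laid down, and Gdf11 is known to bring forward the 5′ Hox genes at the trunk to tail transition. Mesenchyme arises when epithelial cells lose E-cadherin and junction proteins and make fibrillar collagen and other matrix.

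Levels are given in RPM, reads per M reads (M being 10 to the power of 6), from the deposited log2 values after each library was divided by its median ratio to the mean library. They are thus relative levels, not the deposited RPM. Differences are log2 values relative to the median gene, with the standard error, from limma on all 12 libraries, and a gene is said to have risen or fallen where the adjusted p was under 0.05. On the deposited scale the median tested gene of the del/del course moved by -0.20 (log2). The gene reads of the del/del libraries were 7.67 and 8.67 M at day 1, 4.78 and 3.99 M at day 5 and 8.11 and 7.57 M at day 8, and those of the fl/fl libraries were 1.51 to 7.60 M, with the lowest in line 3 at day 8. Rank correlations across genes between the 2 libraries of a group were 0.993 at day 1, 0.947 at day 5 and 0.983 at day 8 in del/del cells. Reads of very abundant genes hardly followed the depth (Eef1a1, a translation factor gene, had 1680 to 2090 reads in every library), so fold changes of densely read genes may be understated.

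Short stretches of 6 promoters are shown. Nanog, Zfp42 and Sox2 are naive and core pluripotency genes that were lower at day 8 than at day 1. Sp5 and Msgn1, of the streak and presomitic lists, and Actc1, a contractile gene, were higher. Each stretch is the 250 bases before the RefSeq start site, 5′ to 3′ on the strand of the gene, in build GRCm38.p6. Capitals mark a match on either strand to TTTGCAT (an octamer-like motif, in Nanog, Zfp42 and Sox2), CTTTGAT (the Tcf and Lef motif, in Sp5 and Msgn1) or the CArG box bound by serum response factor (in Actc1).
Nanog, chr6:122707239-122707488, plus strand: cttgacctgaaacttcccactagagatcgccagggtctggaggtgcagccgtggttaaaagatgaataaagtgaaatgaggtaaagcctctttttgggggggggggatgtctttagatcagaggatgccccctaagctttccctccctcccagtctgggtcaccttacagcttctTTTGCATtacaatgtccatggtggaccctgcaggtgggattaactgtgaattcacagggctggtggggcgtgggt
Zfp42, chr8:43307010-43307259, minus strand: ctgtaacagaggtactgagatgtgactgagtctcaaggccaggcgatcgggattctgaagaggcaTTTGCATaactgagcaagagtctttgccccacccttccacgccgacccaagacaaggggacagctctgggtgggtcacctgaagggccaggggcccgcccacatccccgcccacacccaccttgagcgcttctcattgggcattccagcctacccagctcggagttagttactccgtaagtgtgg
Sox2, chr3:34649745-34649994, plus strand: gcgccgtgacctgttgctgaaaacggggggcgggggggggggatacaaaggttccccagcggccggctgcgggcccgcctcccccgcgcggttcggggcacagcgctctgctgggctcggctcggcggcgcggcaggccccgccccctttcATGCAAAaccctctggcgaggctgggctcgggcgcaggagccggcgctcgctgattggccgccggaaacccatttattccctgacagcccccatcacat
Sp5, chr2:70474673-70474922, plus strand: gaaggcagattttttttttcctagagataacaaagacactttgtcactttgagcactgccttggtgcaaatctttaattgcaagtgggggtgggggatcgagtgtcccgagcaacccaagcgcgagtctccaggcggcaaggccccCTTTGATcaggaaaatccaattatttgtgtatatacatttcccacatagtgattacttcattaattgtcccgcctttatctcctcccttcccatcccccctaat
Msgn1, chr12:11208949-11209198, minus strand: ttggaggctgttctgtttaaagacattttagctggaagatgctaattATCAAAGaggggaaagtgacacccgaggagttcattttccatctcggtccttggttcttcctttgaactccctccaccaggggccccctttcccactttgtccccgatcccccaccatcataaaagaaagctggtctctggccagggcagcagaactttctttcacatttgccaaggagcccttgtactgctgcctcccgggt
Actc1, chr2:114052876-114053125, minus strand: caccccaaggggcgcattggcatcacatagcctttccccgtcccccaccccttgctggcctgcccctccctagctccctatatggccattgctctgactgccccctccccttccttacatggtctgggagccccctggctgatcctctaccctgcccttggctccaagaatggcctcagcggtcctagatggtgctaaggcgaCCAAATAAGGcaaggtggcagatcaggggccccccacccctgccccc

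Over all 32851 promoter windows of this length, 4.12% held the octamer-like motif, 3.21% the Tcf and Lef motif and 1.47% the CArG box. Of 13 tested naive genes with a promoter entry 2 held the octamer-like motif, as did 1 of 11 core and primed genes and 3 of 13 streak genes (Cdx2, Cdx4 and Evx1), while the Tcf and Lef motif stood in 1 of 13 streak genes and 1 of 11 presomitic genes. The CArG box was present in 3 of 12 muscle genes (Myl3, Actc1 and Acta1). A match describes these letters only, and the RefSeq start of Actc1 lies 673 bases inside the gene as the deposited table bounds it. Entries were found for 68.4% of the tested genes, so a comparison of promoter composition between genes that rose and fell is void, because fewer than 80% of them have a sequence.

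Smchd1 itself (chromosome 17, 71344489 to 71475343, mm10), the targeted gene, had 5.04 and 6.01 RPM at day 1, 4.12 and 5.17 RPM at day 5 and 3.79 and 3.55 RPM at day 8 in del/del cells. In fl/fl cells it had 37.8 and 41.6 RPM at day 1, 16.4 and 22.9 RPM at day 5 and 24.1 and 15.3 RPM at day 8. Every del/del library lay below every fl/fl library of its day. Within del/del cells the difference between day 8 and day 1 (-0.59 ± 0.24, adjusted p = 0.0655) did not pass the test. It was past the test by quantile normalization (-0.91, adjusted p = 0.00698), with the 4 del/del libraries of the 2 days alone (adjusted p = 0.0226), with array weights (adjusted p = 0.00383) and without either fl/fl day 8 library (adjusted p = 0.0268 to 0.0272). The table counts reads over the whole gene, exons outside the deleted stretch included, so the reads left are no measure of undeleted cells.

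At day 8, 3755 of 14063 tested genes were higher (26.7%) and 3379 were lower (24.0%) than at day 1, in all 50.7%, and 7916 had an unadjusted p under 0.05. The rises ran further than the falls: 927 genes rose and 526 fell at least 8-fold, and 358 rose and 177 fell at least 32-fold. With at least 50 reads in each library of one day and 0 reads in both libraries of the other, 25 genes were read at day 8 only and 11 at day 1 only.

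Of the 12 largest rises among genes with at least 50 reads in each day 8 library, 3 were Hox genes, 2 were contractile and 4 were mesenchymal or matrix genes of the lists used below. Prrx1, a homeobox gene of limb and craniofacial mesenchyme, had 39 and 38.2 RPM at day 8, against 0 and 0 RPM at day 1, at least 539-fold higher with the floor set at 3 reads per library (10.81 ± 0.72, adjusted p = 1.33e-06). Acta2, smooth muscle actin, had 59.5 and 68.9 RPM at day 8, against 0.0512 and 0.111 RPM at day 1 (9.73 ± 0.49, adjusted p = 3.58e-07), and its day 5 libraries lay between, at 15.7 and 15.2 RPM. Col3a1, a fibrillar collagen of loose connective tissue, had 158 and 185 RPM at day 8, against 0.307 and 0.244 RPM at day 1 (9.29 ± 0.71, adjusted p = 2.84e-06). That both day 8 libraries lay above both day 1 libraries was a condition for naming these genes. Cdh11, the cadherin of mesenchymal cells, had 71.4 and 78 RPM at day 8, against 0.128 and 0.133 RPM at day 1 (9.16 ± 0.68, adjusted p = 2.48e-06). Bgn, a small matrix proteoglycan, had 25.9 and 40 RPM at day 8, against 0.0512 and 0.0444 RPM at day 1, and Ccdc80, a secreted matrix protein, was unread at day 1 and had 13.4 and 20.5 RPM at day 8, at least 237-fold higher.

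The 3 Hox genes were Hoxd12, Hoxa9 and Hoxc10. Hoxd12 had 19.8 and 23.1 RPM at day 8, against 0.0256 and 0 RPM at day 1 (1800-fold in reads, with a 95% counting interval of 322 to 71000). Hoxa9, unread at day 1, had 14.5 and 16.7 RPM at day 8, at least 218-fold higher, and Hoxc10, also unread at day 1, had 13 and 15.9 RPM, at least 201-fold higher. Actc1, cardiac actin, had 9.44 and 18.7 RPM at day 8, against 0.0256 and 0 RPM at day 1 (1170-fold in reads, with a 95% counting interval of 210 to 46300), with the higher level in line 3. The list closed with Tril, a cofactor of Toll-like receptors, at 58.2 and 66.8 RPM at day 8, against 0.205 and 0.0444 RPM at day 1, and Lsp1, an actin-binding protein of leukocytes, at 47.3 and 46.1 RPM at day 8, against 0.0768 and 0.0888 RPM at day 1.

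The 12 largest falls held 4 transcription factor genes, Foxd3, Otx2, Foxi3 and Myb. Slc27a2, a fatty acid transporter and acyl-CoA synthetase, had 0.0235 and 0.0253 RPM at day 8, against 20.2 and 28.3 RPM at day 1 (-9.94 ± 0.43, adjusted p = 2.58e-07). Otx2, a homeobox factor of primed epiblast and forebrain, had 0.0706 and 0.0253 RPM at day 8, against 13.6 and 13.7 RPM at day 1 (-8.34 ± 0.69, adjusted p = 4.78e-06), and Foxd3, a forkhead factor needed in pluripotent cells and neural crest, had 0.0471 and 0.0253 RPM at day 8, against 10.5 and 12.6 RPM at day 1 (-8.38 ± 1.02, adjusted p = 6.55e-05). For these falls too, day 1 libraries above both day 8 libraries were a condition for being named. Spna1, an erythroid spectrin, had 0.0941 and 0.0506 RPM at day 8, against 48.9 and 53.4 RPM at day 1. Aoah, an enzyme that inactivates bacterial lipopolysaccharide, had 0.0235 and 0.0253 RPM at day 8, against 17.4 and 16.2 RPM at day 1 (-9.43 ± 0.46, adjusted p = 3.33e-07), and Myb, a proto-oncogenic transcription factor, had 0 and 0.101 RPM at day 8, against 7.37 and 8.28 RPM at day 1 (-7.40 ± 0.68, adjusted p = 9.67e-06). The other 6 of the 12 largest falls (Cyp2b23, Clca6, Btbd17, Slc22a22, Foxi3 and Pla2g10) had log2 differences of -8.87 to -7.39.

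**Figure D1:**
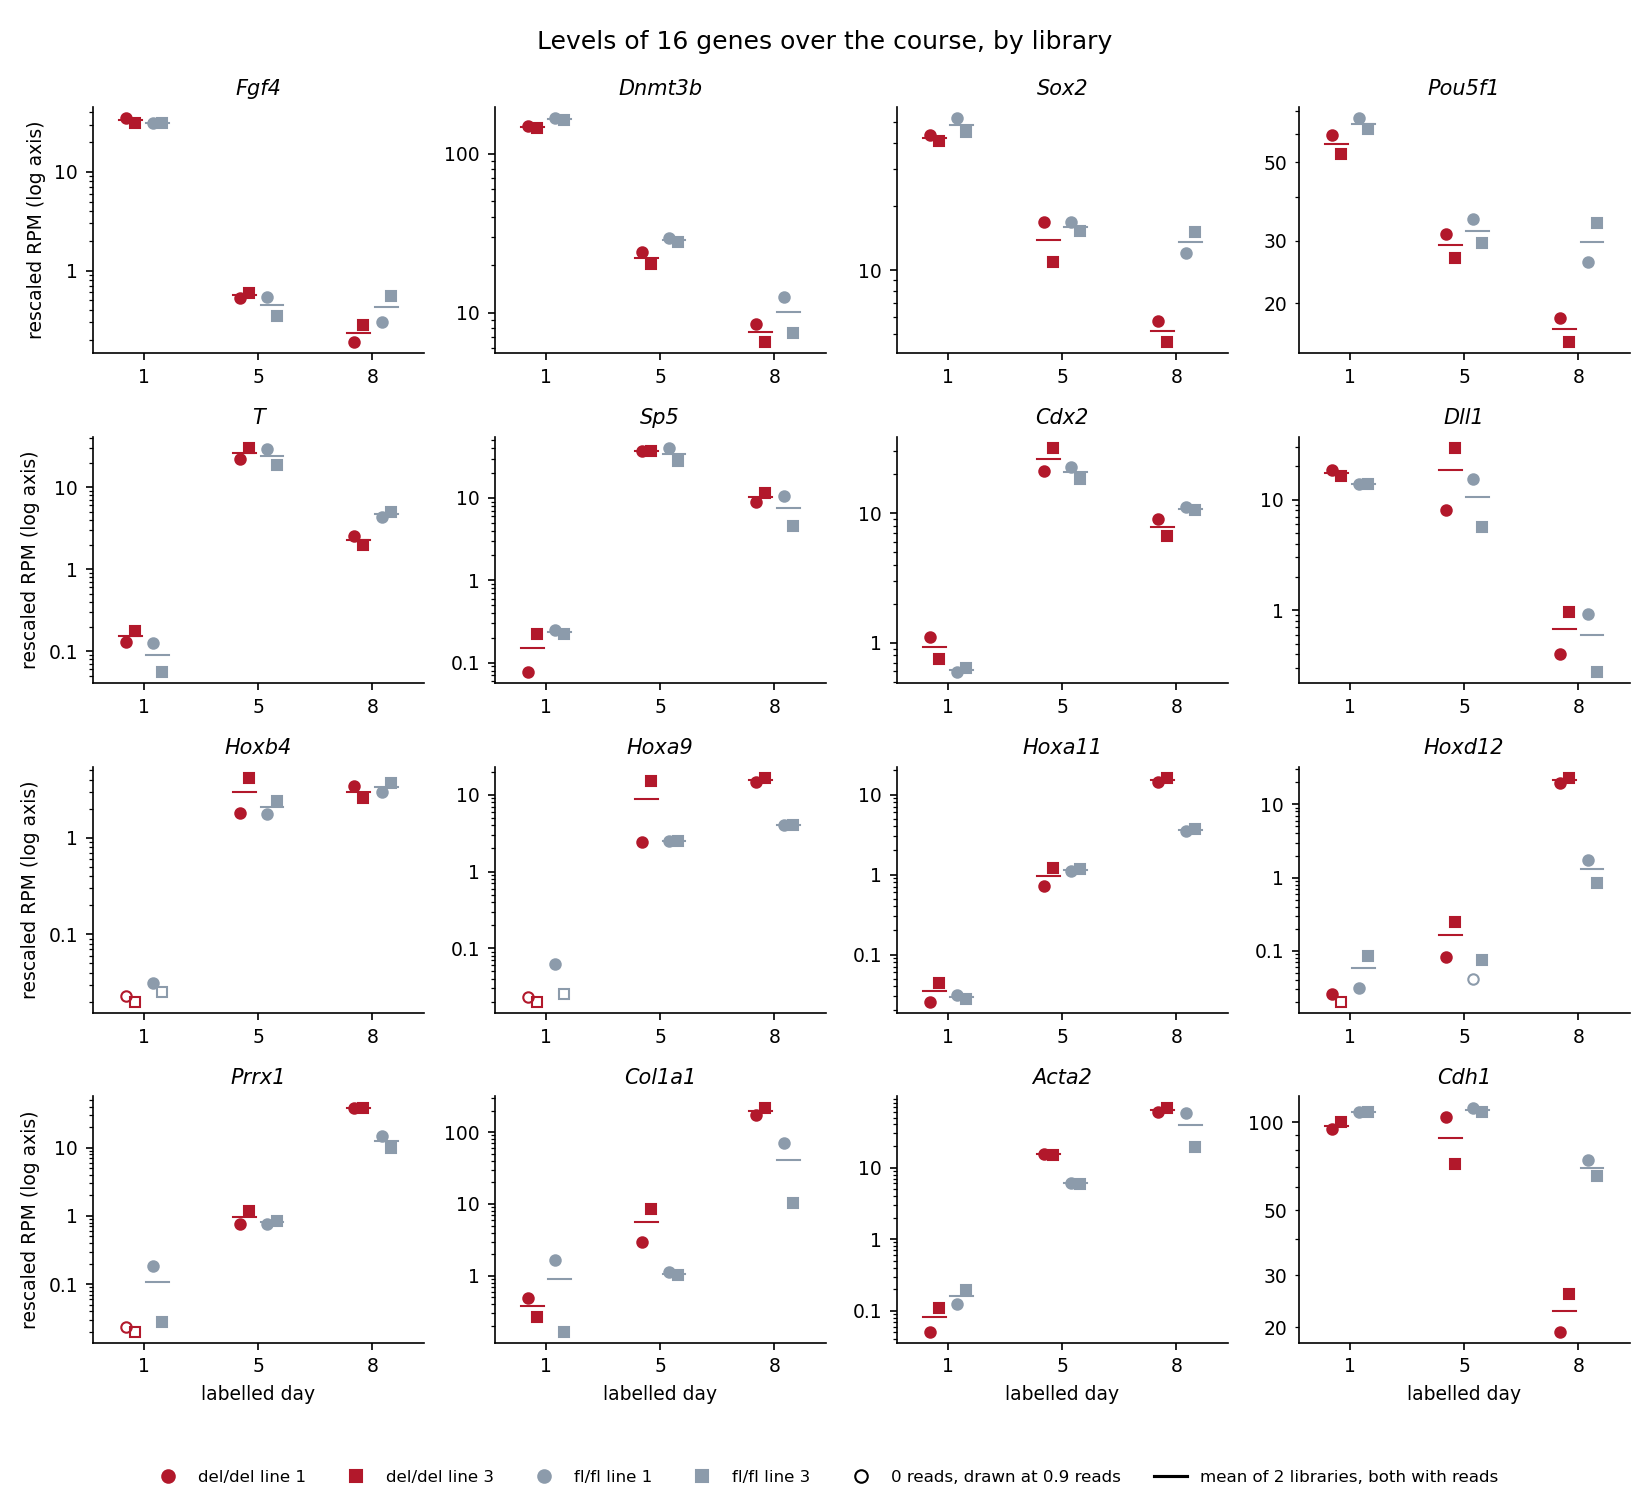
Rescaled RPM on a log axis for 16 genes in each library at labelled days 1, 5 and 8, with del/del cells in red and fl/fl cells in grey, circles for line 1 and squares for line 3, bars for the mean of a group whose libraries both had reads, and open symbols for libraries with 0 reads, drawn at 0.9 reads. In del/del cells Fgf4, Dnmt3b, Sox2 and Pou5f1 step down over the course, T, Sp5 and Cdx2 peak at day 5, Hoxb4 is near its final level by day 5, and Hoxa11, Hoxd12, Prrx1, Col1a1 and Acta2 are highest at day 8.

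Pluripotency genes fell. Of 24 naive genes 23 were tested, of which 18 fell and 2 rose, with a median of -2.53 against -0.01 over all tested genes. Fgf4, the autocrine ERK ligand of ES cells, had 0.188 and 0.279 RPM at day 8, against 34.9 and 31.3 RPM at day 1, a 144-fold fall (-7.17 ± 0.40, adjusted p = 5.1e-07). Klf2 and Gdf3, a Krüppel-like factor of the naive state and a TGF-beta family ligand, had differences of -4.21 and -5.16. In all 3 the libraries of the 2 days did not overlap, which with 2 libraries a day is a description only.

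Nanog, the homeobox factor of naive cells, had 8.31 and 6.91 RPM at day 8, against 31.8 and 22.2 RPM at day 1 (-1.81 ± 0.38, adjusted p = 0.00238), and Zfp42 (Rex1), a zinc finger marker of the naive state, had 2.52 and 1.06 RPM at day 8, against 14.4 and 11.4 RPM at day 1 (-2.97 ± 0.53, adjusted p = 0.000826). Sall4, a zinc finger factor of the same network, had 60.1 and 55.8 RPM at day 1, 16 and 17.7 RPM at day 5 and 9.39 and 10.1 RPM at day 8 (-2.57 ± 0.14, adjusted p = 4.28e-07), and Esrrb had a difference of -2.08. The 2 days did not overlap in any of these genes, again only a description, and the fall of Nanog was smaller than that of Fgf4. The 2 that rose were Tbx3, a T-box factor that also marks limb and lateral mesoderm, with 22.1 and 18.6 RPM at day 8, against 2.61 and 1.31 RPM at day 1 (3.46 ± 0.32, adjusted p = 1.03e-05), and Klf5 with 7.93 and 7.09 RPM at day 8, against 4.58 and 4.79 RPM at day 1 (0.68 ± 0.24, adjusted p = 0.0337). The call of Klf5 was lost without any one of the 4 day 8 and day 1 libraries (adjusted p = 0.0759 to 0.154) and on the deposited scale (adjusted p = 0.482). Klf4, Dppa5a and Tet2 did not pass the test, at 0.75, -0.89 and -0.45, but Dppa5a passed it in 12 of the alternatives (adjusted p = 0.00069 to 0.0499), Klf4 in 2 (adjusted p = 0.0067 to 0.026) and Tet2 by quantile normalization (-0.78, adjusted p = 0.0326).

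Of 15 core and primed genes 12 fell and 2 rose (median -2.01). Dnmt3b, the de novo DNA methyltransferase of epiblast, had 150 and 145 RPM at day 1, 23.9 and 20.2 RPM at day 5 and 8.52 and 6.51 RPM at day 8 (-4.31 ± 0.22, adjusted p = 3.58e-07). Sox2, shared by pluripotent and neural cells, had 43.4 and 40.9 RPM at day 1, 16.9 and 11 RPM at day 5 and 5.77 and 4.58 RPM at day 8 (-3.04 ± 0.21, adjusted p = 1.93e-06). Pou5f1 (Oct4) had 59.7 and 52.6 RPM at day 1, 31.4 and 26.9 RPM at day 5 and 18.2 and 15.5 RPM at day 8 (-1.74 ± 0.16, adjusted p = 1.03e-05). All 3 fell by day 5 and lay lower again at day 8. Pou3f1, a POU factor of primed epiblast, and Utf1, a pluripotency chromatin factor, had differences of -5.47 and -3.46, and Fgf5, the ligand that marks primed epiblast, -5.02. Without line 3 of del/del day 8 Fgf5 stood at -3.20 and was not past the test (adjusted p = 0.0539). Against these, Etv4, an ETS factor downstream of FGF, rose by 0.66 (adjusted p = 0.00432) and Lef1, a nuclear effector of Wnt, by 0.78 (adjusted p = 0.0374). Etv4 was no longer past the test with line 1 of del/del day 1 left out (adjusted p = 0.0615), and neither was Lef1 without any one of the del/del day 8, del/del day 1 or fl/fl day 1 libraries (adjusted p = 0.0521 to 0.178). With a block for the line the adjusted p of Lef1 was 0.0513.

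The fall of pluripotency genes was spread over the steps unevenly. Between day 5 and day 1, 2895 genes rose (20.6%) and 2651 fell (18.9%), and between day 8 and day 5, 1038 rose (7.38%) and 626 fell (4.45%). These splits depend on the scale: on the deposited scale 826 rose and 4928 fell by day 5, and 1096 rose and 51 fell after it, whereas the split of the whole course is 2000 higher and 1877 lower on that scale. Both steps share libraries with the whole course, so their values stand side by side here and are not independent. Of the 23 naive genes 17 fell and 3 rose by day 5, and 8 fell and 2 rose after it. Of the 15 core and primed genes 13 fell by day 5 and 6 after it.

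Hox genes rose. The 38 tested Hox genes, of 39 in the list, were called higher at day 8, with a median of 7.51 (7.15 with genes unread at day 1 set at their bound of 3 reads per library). Of the 38, 7 were unread at day 1 and 20 had at most 3 reads over both day 1 libraries, so that many passed the filter on low values only through later libraries and the count is a description. The untested one, Hoxa4, had 17 and 22 reads at day 8, against 0 and 0 reads at day 1. By position, the medians were 7.11 for paralogs 1 to 5, 7.78 for paralogs 6 to 9 and 8.08 for paralogs 10 to 13. No call of the 38 was lost in any of the 23 alternative settings that gave it a value.

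The steps differed with the position in the cluster. The 14 tested genes of paralogs 1 to 5 and the 12 of paralogs 6 to 9 rose between day 5 and day 1, and by limma none of these 26 passed the test between day 8 and day 5, where 2 had a positive difference with an unadjusted p under 0.05. The lines differed in this later step, with medians of 1.0 and -0.28 for paralogs 1 to 5. For paralogs 6 to 9 the medians were 1.21 and 0.05. Of the 12 genes of paralogs 10 to 13, 8 rose by day 5 and 9 rose after it. Hoxb4 had 0 and 0 RPM at day 1, 1.82 and 4.18 RPM at day 5 and 3.41 and 2.56 RPM at day 8 (0.10 ± 0.53, adjusted p = 0.928 for day 8 minus day 5), its day 5 and day 8 libraries overlapping. Hoxb9 had 0.0768 and 0.178 RPM at day 1, 7.43 and 13.6 RPM at day 5 and 28.4 and 26.2 RPM at day 8 (1.44 ± 0.53, adjusted p = 0.102 for the later step). Hoxa11, a gene of limb and posterior trunk, had 0.0256 and 0.0444 RPM at day 1, 0.727 and 1.19 RPM at day 5 and 14.3 and 16.2 RPM at day 8, with the later step at 4.03 ± 0.48, adjusted p = 0.00077. Levels of Hoxa11 at day 8 lay above every earlier library.

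The latest genes were at the 5′ ends. Hoxd12 had 0.0256 and 0 RPM at day 1, 0.0808 and 0.249 RPM at day 5 and 19.8 and 23.1 RPM at day 8 (7.24 ± 0.79, adjusted p = 0.000526 for day 8 minus day 5). Hoxc11 had 0.0256 and 0.0222 RPM at day 1, 0.162 and 0 RPM at day 5 and 6.73 and 6.53 RPM at day 8 (6.28 ± 0.74, adjusted p = 0.000737), and Hoxc12 was unread until day 8, when it had 1.93 and 1.7 RPM. Hoxd13, the terminal gene of the Hoxd cluster, had 0.972 and 0.821 RPM at day 1, 0.121 and 0.845 RPM at day 5 and 16.9 and 16.4 RPM at day 8 (5.70 ± 0.73, adjusted p = 0.0011 for the later step). It was already read at day 1, and its step up to day 5 was -1.48 ± 0.73, adjusted p = 0.13. The smallest whole-course rise was that of Hoxc13 (2.56 ± 0.41, adjusted p = 0.0004). Exons of Hoxb3, Hoxd3 and Hoxd4 overlap those of other annotated genes over 52.9%, 62.8% and 52.3% of their length, and no source used here gives the strand setting of the counting, so their reads are uncertain.

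**Figure D2:**
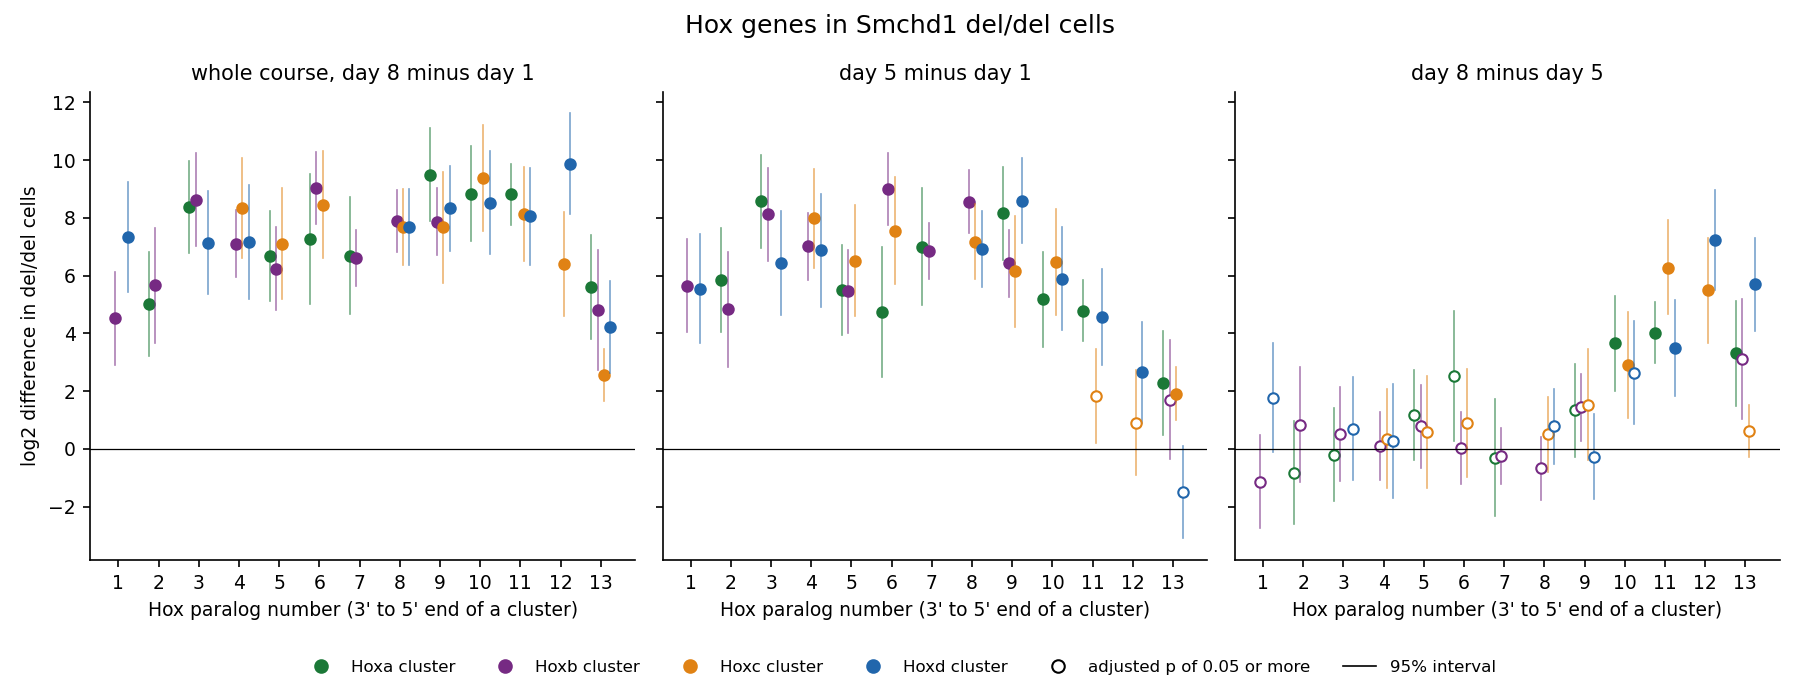
Log2 differences of 37 of the 38 tested Hox genes in del/del cells against paralog number, coloured by cluster, for the whole course, the step to day 5 and the step from day 5 to day 8; vertical lines are 95% intervals and open points have an adjusted p of 0.05 or more. Paralogs 1 to 9 sit high in the middle panel and lower in the right one, where their points are open. There the points of paralogs 10 to 13 rise to 7.24 at Hoxd12.

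Of 9 genes of the Hox cofactor families Pbx, Meis and Pknox, 4 rose and 1 fell. Meis2, Meis3 and Meis1, homeobox partners of Hox proteins, rose by 3.56, 3.37 and 3.13 (adjusted p = 3.06e-06, 0.000126 and 0.000553). Pbx2 rose by 0.71 and Pbx4 fell by 1.20, and the call of Pbx4 was lost without any one of the del/del day 8 or day 1 libraries (adjusted p = 0.0623 to 0.113).

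Most tested streak and neuromesodermal genes rose by day 5, and more of them fell than rose after it. Of 23 genes 19 were tested, of which 11 rose and 3 fell over the whole course (median 2.01). By day 5, 13 of them had risen and 3 had fallen, and after it 10 fell and 1 rose. T, the brachyury factor of streak and caudal progenitors, had 0.128 and 0.178 RPM at day 1, 22.4 and 30.2 RPM at day 5 and 2.54 and 2 RPM at day 8 (3.90 ± 0.43, adjusted p = 3.12e-05), with 7.43 to day 5 and -3.53 after it. Sp5, a Wnt-induced zinc finger gene whose promoter is shown above, had 0.0768 and 0.222 RPM at day 1, 36.7 and 37.3 RPM at day 5 and 8.92 and 11.3 RPM at day 8 (6.26 ± 0.49, adjusted p = 3.47e-06). Cdx2, a caudal homeobox gene that precedes the trunk Hox genes, had 1.1 and 0.754 RPM at day 1, 21 and 31.9 RPM at day 5 and 9.06 and 6.69 RPM at day 8 (3.09 ± 0.28, adjusted p = 8.47e-06). In all 3 the day 5 libraries were the highest, and the day 8 libraries stayed above day 1.

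Cdx1, of the same family, rose by 4.92 (adjusted p = 1.08e-06), Evx1 by 4.47 (adjusted p = 9.2e-06) and Mixl1, a streak homeobox gene, by 5.31 (adjusted p = 0.000252). Wnt5a, a ligand of non-canonical Wnt signalling in the tail bud and limb, was the gene that still rose after day 5, with 1.25 and 0.71 RPM at day 1, 3.64 and 7.36 RPM at day 5 and 16.8 and 13.8 RPM at day 8 (1.56 ± 0.44, adjusted p = 0.045 for that step). Fgf8, the FGF of the caudal epiblast, had 0.0768 and 0.222 RPM at day 1, 2.59 and 8.31 RPM at day 5 and 0.141 and 0.101 RPM at day 8, with day 8 close to day 1 (-0.13 ± 0.85, adjusted p = 0.917) after a rise of 5.15 and a fall of 5.28. Nodal, the streak-inducing ligand already made by ES cells, fell to 0.541 and 0.506 RPM at day 8, against 27.9 and 22.6 RPM at day 1 (-5.59 ± 0.32, adjusted p = 5.6e-07). Wnt8a, a streak Wnt ligand, and Epha1, an ephrin receptor, fell by 3.66 and 1.90. Cyp26a1, which degrades retinoic acid in the tail bud, differed between the lines, with 0.965 and 13.5 RPM at day 8 against 0.998 and 0.732 RPM at day 1 (2.08 ± 1.10, adjusted p = 0.141). With the line 1 library of day 8 left out, Cyp26a1 was called higher (3.98, adjusted p = 0.00807). The calls of Cdx4 and Foxa2, an endoderm and node factor, at 2.01 and 3.80, were lost without single del/del libraries (adjusted p = 0.0504 to 0.0952 and 0.0609 to 0.0772).

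Presomitic genes moved both ways. Of 29 genes of presomitic mesoderm and somite segmentation 17 were tested, 7 rose and 4 fell (median 0.42). Among all tested genes 26.7% rose and 24.0% fell, so the falls were near that share. Without line 1 of del/del day 8 the median was 1.22, and 2 fell without that library or either del/del day 1 library. Pax3, a paired homeobox factor of anterior presomitic mesoderm and dorsal neural tube, had 0 and 0.0888 RPM at day 1, 1.9 and 2.24 RPM at day 5 and 6.02 and 6.46 RPM at day 8 (7.11 ± 0.60, adjusted p = 5.64e-06), and Foxc1, a forkhead factor of somites and other mesoderm, 0.0256 and 0.0222 RPM at day 1, 1.05 and 5.67 RPM at day 5 and 4.31 and 7.32 RPM at day 8 (242-fold in reads, with a 95% counting interval of 66.7 to 2010). Scx, of tendon progenitors, rose by 3.82 and Hes1, a Notch target, by 2.68.

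Msgn1 and Tbx6, the factors that set up presomitic mesoderm, had their highest values in the day 5 library of line 3. Msgn1 had 0 and 0 RPM at day 1, 2.83 and 12 RPM at day 5 and 0.612 and 1.65 RPM at day 8, at least 15.8-fold higher at day 8 than at day 1, and Tbx6 had 0.102 and 0.0444 RPM at day 1, 2.14 and 16.8 RPM at day 5 and 0.518 and 0.836 RPM at day 8 (3.29 ± 0.97, adjusted p = 0.0152 for the whole course). Their differences between day 8 and day 5, -2.54 and -3.19, did not pass the test (adjusted p = 0.126 and 0.0568). Dll1, the Notch ligand of the segmentation clock, had 18.7 and 16.3 RPM at day 1, 8.12 and 29.3 RPM at day 5 and 0.4 and 0.962 RPM at day 8 (-4.81 ± 0.71, adjusted p = 0.000239), its lines lying apart at day 5 and both low at day 8. Ripply1, a repressor at the somite boundary, fell by 5.93, Dll3, a modulator of Notch, by 2.13 and Notch1 by 0.67. The calls of Tbx6, Dll3 and Notch1 depended on single libraries: Tbx6 was lost without the line 3 library of del/del day 8 or day 1 (adjusted p = 0.0867 to 0.104), Notch1 without line 1 of del/del day 8 or either del/del day 1 library (adjusted p = 0.0711 to 0.261), and Dll3 without those 3 or either fl/fl day 1 library (adjusted p = 0.0586 to 0.267). With line 1 of day 8 left out, Dll3 stood at -1.38 and Notch1 at -0.36. Msgn1 was not past the test on the log2(RPM + 1) scale (adjusted p = 0.133). Rspo3, a Wnt potentiator, had 2.93, and its call was lost without any one of the 4 del/del libraries of the 2 days or the fl/fl day 5 libraries (adjusted p = 0.0563 to 0.201). Hes7, the clock oscillator, was at 0.98 ± 0.80, adjusted p = 0.338.

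Fibroblast and matrix genes rose in both steps, with a median of 1.73 to day 5 and 3.13 after it. Of 30 fibroblast and matrix genes, all of them tested, 26 rose and 1 fell (median 5.01). By day 5, 18 had risen, and 24 rose between day 8 and day 5. Col1a1, the fibrillar collagen of bone and connective tissue, had 0.486 and 0.266 RPM at day 1, 2.95 and 8.4 RPM at day 5 and 172 and 220 RPM at day 8, and Col5a1, which starts collagen fibrils, had 1.33 and 1.75 RPM at day 1, 10.7 and 11.7 RPM at day 5 and 97.5 and 101 RPM at day 8 (6.02 ± 0.28, adjusted p = 2.58e-07). Thbs1, a matricellular protein, had 3.86 and 3.26 RPM at day 1, 16.6 and 12.4 RPM at day 5 and 171 and 184 RPM at day 8 (5.64 ± 0.30, adjusted p = 4.2e-07). Each was highest in the day 8 libraries. Fbn2, a microfibril protein, Fbln2 and Loxl1, a crosslinking enzyme, rose by 7.13, 5.48 and 4.59, and Mmp14, a membrane metalloproteinase, by 2.88. Eln, Col18a1 and Col2a1 did not pass the test. Dcn, a matrix proteoglycan, was the one that fell (-2.53 ± 0.89, adjusted p = 0.0343), a call lost without any one of the day 1 libraries of either genotype or line 1 of del/del day 8 (adjusted p = 0.0511 to 0.22).

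Fibroblast feeder cells express many of the same genes, and the labels used here do not mention any. A list of 12 feeder fibroblast markers, which shares genes with the matrix list, summed to 4.15 and 4.84 RPM at day 1, 22.2 and 39.0 RPM at day 5 and 456 and 573 RPM at day 8, with 4 of the 12 unread in both day 1 libraries and 1 in both day 8 libraries. Of its 9 tested members 8 rose and 1 fell (median 7.04, or 6.59 with an unread gene at its bound), and Pdgfrb, a receptor of mesenchymal and mural cells, rose by 6.59 (adjusted p = 2.48e-06). In fl/fl cells the sums were 220.0 and 56.1 RPM at day 8, against 7.02 and 3.0 RPM at day 1. The part of such cells in the result was not tested. In bulk RNA a change in the number of cells of a type and a change in the RNA of each cell cannot be told apart.

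Genes of epithelial to mesenchymal transition rose in 18 of 18 tested (of 19), with a median of 3.36. Cdh2, N-cadherin, had 1.97 and 2.33 RPM at day 1, 24.8 and 28.3 RPM at day 5 and 35.9 and 31 RPM at day 8 (3.96 ± 0.22, adjusted p = 4.57e-07) with 3.63 to day 5 and 0.33 (adjusted p = 0.347) after it. Itga5, a fibronectin receptor subunit, rose by 2.78 and Tcf4, an E-box factor, by 3.30. Twist1, a basic helix-loop-helix factor of mesenchyme, had 2.46 and 2.02 RPM at day 1, 2.34 and 3.38 RPM at day 5 and 26.9 and 30.2 RPM at day 8 (3.68 ± 0.26, adjusted p = 1.94e-06). Its step to day 5 was 0.34 (adjusted p = 0.328), and that after day 5 was 3.34 (adjusted p = 0.00015).

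Of 27 genes of lateral plate, intermediate mesoderm and limb 17 were tested, 13 rose and 3 fell (median 4.35). Tbx2, a T-box repressor of limb and heart, had 0.0768 and 0.0888 RPM at day 1, 0.606 and 0.696 RPM at day 5 and 24.9 and 36.4 RPM at day 8 (8.51 ± 0.55, adjusted p = 1.18e-06). Bmp4, a ligand that patterns lateral and ventral mesoderm, had 2.28 and 1.62 RPM at day 1, 12.4 and 12.1 RPM at day 5 and 39.7 and 38.5 RPM at day 8 (4.35 ± 0.31, adjusted p = 2.1e-06). Msx2, a BMP-induced homeobox gene, rose by 4.97 and Prrx2, a relative of Prrx1, by 7.65. Wt1, a factor of intermediate mesoderm and mesothelium, fell to 0.0706 and 0.203 RPM at day 8, against 6.93 and 6.55 RPM at day 1 (-5.82 ± 0.83, adjusted p = 0.000186). Tbx4 of the hindlimb and Tbx20 of the heart fell by 2.51 and 2.58, and Tbx20 was not past the test without any one of the del/del day 8 or day 1 libraries (adjusted p = 0.0527 to 0.0931).

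Muscle and contractile genes rose in 10 of 13 tested members (of 18) and fell in 3 (median 4.24). Besides Acta2 and Actc1, Tnnt2, cardiac troponin T, had 0 and 0 RPM at day 1, 0.687 and 0.647 RPM at day 5 and 3.74 and 4.96 RPM at day 8 (7.65 ± 0.64, adjusted p = 5.26e-06) with 0 reads at day 1. Acta1, skeletal actin, rose by 5.48, Tnnc1, slow troponin C, by 4.74 and Tagln, a smooth muscle actin-binding protein, by 3.45; exons of Tagln overlap other genes over 67.9% of their length. Ttn, the giant sarcomere protein, fell to 0.306 and 0.076 RPM at day 8, against 12.2 and 9.52 RPM at day 1 (-6.15 ± 0.90, adjusted p = 0.000231), and Myh6, atrial myosin, and Myl4, an atrial light chain, fell by 4.57 and 1.06. Of the genes with a CArG box, Myl3, a myosin light chain gene, rose by 4.24, a call lost without line 3 of del/del day 8 (2.14, adjusted p = 0.278) or either del/del day 1 library (adjusted p = 0.0655 to 0.134).

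Epithelial genes went the other way in part. Of 30 adhesion and junction genes 14 fell, 4 rose and 12 did not pass the test (median -0.62). The rises were 7 without either fl/fl day 8 library and 8 with the 4 del/del libraries of the 2 days alone or with array weights. By day 5, 16 had risen and 4 had fallen, and 15 fell between day 8 and day 5 with none rising by limma (0 also at an unadjusted p under 0.05). Cdh1, E-cadherin, had 94.5 and 100 RPM at day 1, 104 and 72.1 RPM at day 5 and 19.3 and 26 RPM at day 8 (-2.12 ± 0.18, adjusted p = 5.94e-06). Epcam, an epithelial adhesion protein of ES cells, had 60.4 and 54.8 RPM at day 1, 44.1 and 36 RPM at day 5 and 13.6 and 14.6 RPM at day 8 (-2.03 ± 0.13, adjusted p = 1.18e-06). Cdh1 was near its day 1 level at day 5 and lower in both day 8 libraries. Rab25, Esrp1 and Grhl2, a vesicle GTPase, a splicing factor and a transcription factor of epithelia, fell by 5.68, 4.48 and 4.65. Krt19, Dsp, Prom1 and Cldn3 (a keratin, desmoplakin, prominin and a claudin) rose by 3.34, 3.17, 1.80 and 1.69, and Cldn3 was not past the test with line 1 of day 8 left out (1.07, adjusted p = 0.0708).

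**Figure D3:**
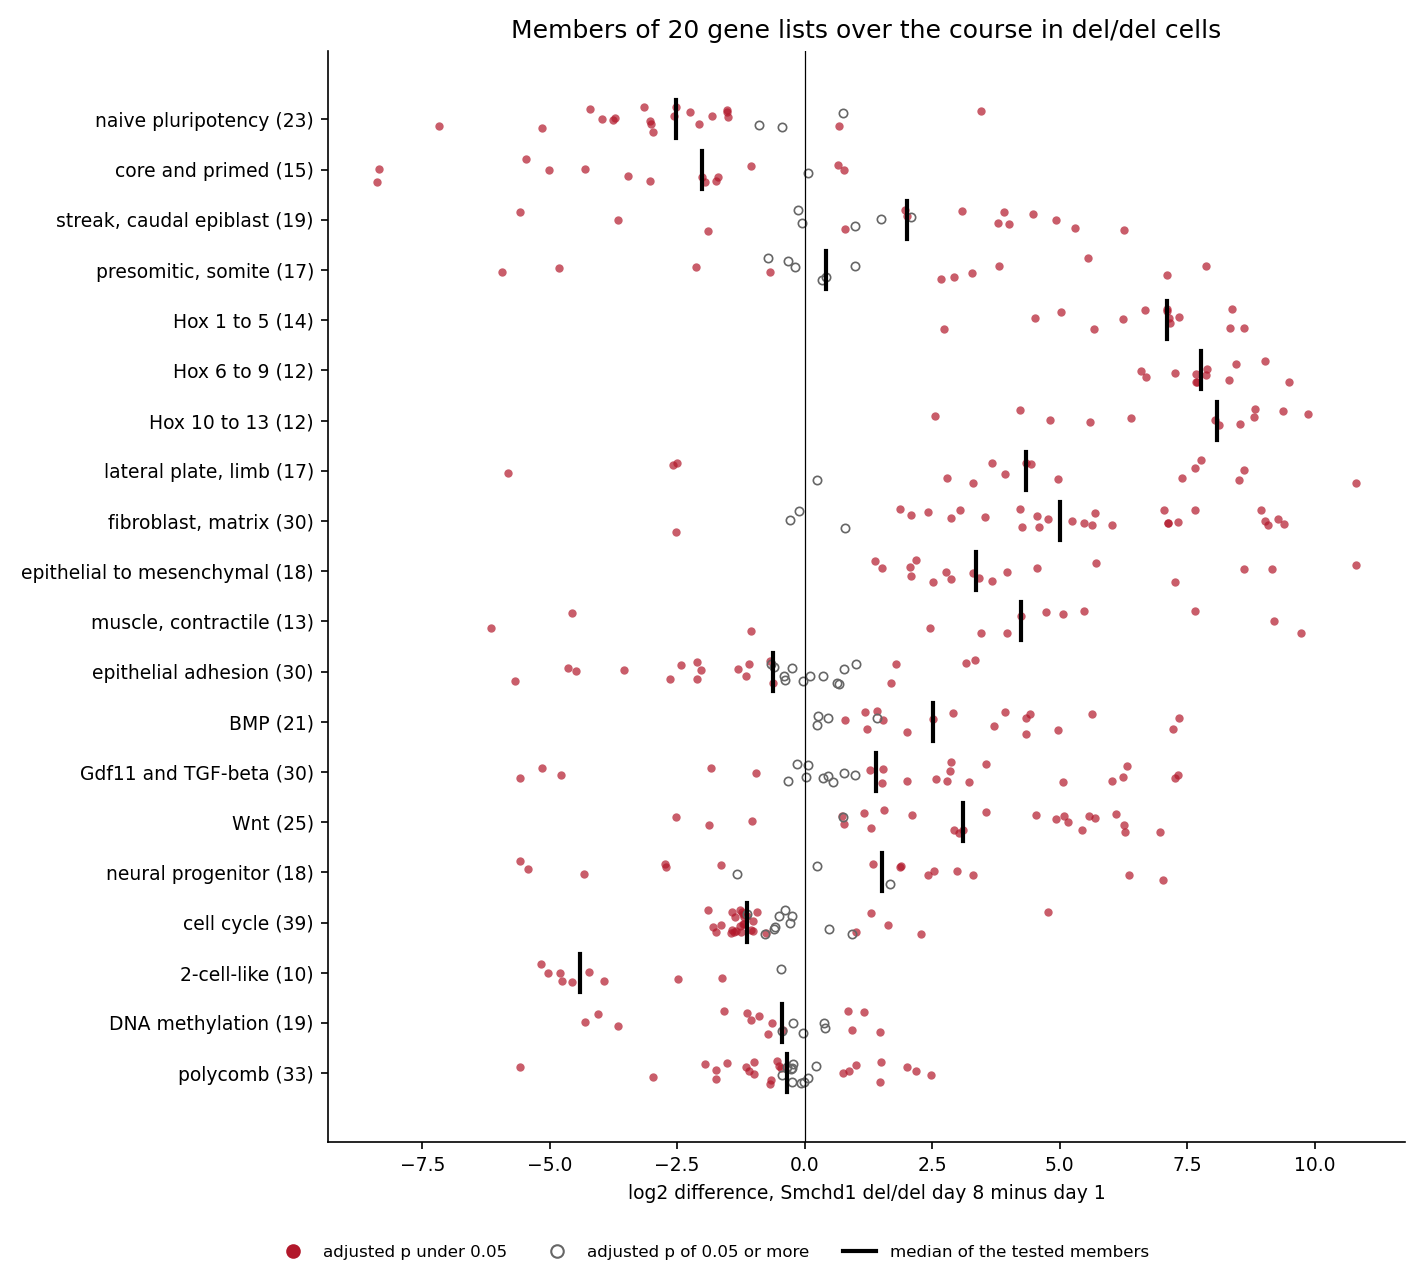
Log2 differences between day 8 and day 1 in del/del cells for the tested members of 20 gene lists (number tested in brackets), 1 point per gene, red where the adjusted p is under 0.05 and open otherwise, with a bar at the median; genes can be in more than 1 list. The Hox and matrix lists lie to the right with medians of 7.11 to 8.08 and 5.01, and the naive, core and 2-cell-like lists lie to the left.

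Of 25 tested Wnt targets and feedback genes (of 26), 21 rose and 3 fell (median 3.11), 19 of them by day 5. Axin2, the standard feedback target of beta-catenin, had 6.5 and 5.68 RPM at day 1, 79.1 and 68.2 RPM at day 5 and 54.9 and 50.1 RPM at day 8 (3.11 ± 0.15, adjusted p = 2.99e-07). Nkd1, a feedback inhibitor, had 0.358 and 0.954 RPM at day 1, 40.6 and 52.2 RPM at day 5 and 70.4 and 76.8 RPM at day 8 (6.97 ± 0.44, adjusted p = 9.12e-07). Both were high in all 4 libraries after day 1, with Axin2 highest at day 5. Notum, a secreted Wnt deacylase, Cd44, a hyaluronan receptor, and Apcdd1, an inhibitor at the membrane, rose by 4.54, 5.09 and 6.28. The 3 that fell were Tcf7l1, the repressive Tcf factor of ES cells (-1.87), Myc (-1.03) and Sfrp1, a secreted antagonist (-2.53).

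Among 30 tested genes of Gdf11, Nodal and TGF-beta signalling (of 32), 16 rose and 5 fell (median 1.40), and 14 rose between day 8 and day 5. Tgfbr2, the type II TGF-beta receptor, had 0.281 and 0.155 RPM at day 1, 9.82 and 6.22 RPM at day 5 and 18.4 and 15.2 RPM at day 8 (6.32 ± 0.35, adjusted p = 4.57e-07), and the ligands Tgfb3 and Inhbb rose by 6.25 and 6.03. Fstl1, a follistatin-like protein, rose by 2.86. Of the members that fell, Tdgf1, the Nodal co-receptor Cripto, had 1.74 and 1.24 RPM at day 8, against 39.7 and 41.3 RPM at day 1 (-4.78 ± 0.44, adjusted p = 9.39e-06), beside Nodal and Gdf3 given above. Lefty1, the feedback inhibitor of Nodal, fell at first and stood higher again at day 8, with 11.3 and 14.9 RPM at day 1, 0.323 and 0.298 RPM at day 5 and 5.18 and 2.56 RPM at day 8 (-1.84 ± 0.37, adjusted p = 0.0017). Acvr2b, an activin receptor, fell by 0.96, a call lost with line 1 of del/del day 1 left out (adjusted p = 0.0524).

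Of 21 tested BMP genes (of 23) 17 rose and by limma none fell (0 also at an unadjusted p under 0.05; median 2.52). Bmp2, a ligand, had 0.128 and 0.111 RPM at day 1, 8.69 and 4.63 RPM at day 5 and 20.8 and 18 RPM at day 8 (7.34 ± 0.44, adjusted p = 7.55e-07), and Bmp7 and Bmp6 rose by 3.72 and 4.42. Grem1, a secreted BMP antagonist of the limb, had 0.0256 and 0 RPM at day 1, 0.121 and 0.0995 RPM at day 5 and 3.77 and 3.04 RPM at day 8 (7.23 ± 0.66, adjusted p = 8.78e-06). Ligands and an antagonist were both higher at day 8.

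The FGF-ERK feedback list had 13 of 22 tested genes higher and 2 lower (median 0.95). Phlda1, a repressor of growth factor signalling, and Il17rd (Sef), an FGF antagonist, rose by 3.17 and 2.46, and Etv5, an ETS factor that also acts in pluripotent cells, and Spry2, a Sprouty inhibitor, fell by 1.69 and 1.26. Retinoic acid genes rose in 10 of 19 and fell in 2 (median 1.79): Stra6, a retinol transporter, had 0.461 and 0.0888 RPM at day 1, 5.74 and 8.01 RPM at day 5 and 22 and 26.2 RPM at day 8 (6.89 ± 0.79, adjusted p = 4.33e-05), Rarb, a receptor induced by its ligand, rose by 3.75, Rdh10, the enzyme of the first oxidation step, by 1.91, and Rxrg and Rarg fell by 6.31 and 0.93. In the Hedgehog list 6 of 11 rose and 3 fell (median 1.70). Gli3 and Smo, a transcription factor that mostly represses and the signal transducer, rose by 2.35 and 1.70, while Ptch1 and Gli1, which the pathway induces as feedback, fell by 1.54 and 2.40.

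Insulin-like growth factor genes rose in 11 of 17 and fell in 1 (median 2.01). Irs1, the receptor substrate, had 0.461 and 0.51 RPM at day 1, 6.63 and 5.52 RPM at day 5 and 27.9 and 27.4 RPM at day 8 (5.83 ± 0.26, adjusted p = 2.58e-07), and Igfbp4, Igfbp5 and Igfbp7, binding proteins, rose by 4.96, 4.51 and 5.80. Igf2, the fetal growth factor, had 12.9 and 10.1 RPM at day 1, 80.6 and 117 RPM at day 5 and 91.1 and 118 RPM at day 8 and had reached its day 8 level by day 5; exons of Igf2 overlap other genes over 64.5% of their length. Igf2bp1, an RNA-binding protein, fell by 1.06.

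Lists of other cell types moved in mixed ways, and their counts stand beside 26.7% of all tested genes higher and 24.0% lower. Of 18 tested neural progenitor genes (of 27) 9 rose and 6 fell (median 1.51). Without line 1 of del/del day 1, 6 rose and 6 fell with a median of 0.76, and on the log2(RPM + 1) scale the median was 0.55. Nes, an intermediate filament of neural and other progenitors, had 14.9 and 23.1 RPM at day 1, 39.5 and 36.2 RPM at day 5 and 97.8 and 101 RPM at day 8 (2.42 ± 0.18, adjusted p = 2.63e-06), and Nkx6-1 and Zic1 rose by 7.02 and 6.36. The pan-neural SoxB1 genes Sox1 and Sox3 fell by 5.58 and 2.73, Olig2 of ventral cord by 5.43 and Pax6 by 1.65, as did Dbx2 (-4.32) and En2 (-2.71). Of 10 tested neuron genes (of 23) 3 rose (Gap43, Nefm and Nefl, at 2.39, 1.58 and 1.40) and 5 fell, with Ina, Elavl3 and Nefh at -6.45, -6.41 and -5.58. The rises of Nefm and Nefl were lost with line 1 of day 8 left out (0.93 and 0.78, adjusted p = 0.0842 and 0.165), and Nefl also without either del/del day 1 library. Of 13 neural crest genes 6 were tested, 3 rose and Foxd3 fell; Ets1, a factor of crest and endothelium, rose by 4.07.

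Extraembryonic endoderm genes rose in 12 of 19 tested (of 23) and fell in 1 (median 2.17). The median was 3.45 without line 1 of del/del day 8 and 1.69, with 8 rises, without line 3. Col4a2 and Col4a1, basement membrane collagens made in large amounts by parietal endoderm and also by mesenchyme, rose by 6.23 and 4.90 and the levels of Col4a2 were 1.89 and 2.09 RPM at day 1, 115 and 78.4 RPM at day 5 and 123 and 181 RPM at day 8. Gata6 and Pdgfra rose by 4.43 and 6.24, and Lrp2, the endocytic receptor of visceral endoderm, fell by 4.09. Sox17, an endoderm factor, had 0.518 and 13.6 RPM at day 8, against 0.281 and 0.178 RPM at day 1, so line 3 held nearly all of it (3.57 ± 1.19, adjusted p = 0.0267). Without that library Sox17 was at 1.21 (adjusted p = 0.269), and without the one of line 1 at 5.93 (adjusted p = 0.000348). The list summed to 638 and 1020 RPM at day 8, against 197 and 205 RPM at day 1. In fl/fl cells it summed to 1590 and 1880 RPM at day 8, and 15 of its genes rose.

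Of 20 tested trophoblast genes (of 24) 6 rose and 3 fell, with a median of 0.75, and 11 did not pass the test. Over all tested genes 26.7% rose and 24.0% fell. The count of rises was 3 without line 3 of del/del day 1 and 10 without either fl/fl day 8 library, and the median was 0.37 without line 1 of del/del day 8. Krt19, Cdx2 and Tpbpa, a spongiotrophoblast gene, rose by 3.34, 3.09 and 5.60, and Ascl2, Gcm1 and Esx1, of ectoplacental cone and labyrinth, fell by 3.72, 4.10 and 0.93. The call of Esx1 was lost without line 3 of del/del day 8 or either del/del day 1 library (adjusted p = 0.0921 to 0.163). Of 13 tested endothelial and blood genes (of 22) 4 rose and 5 fell. Runx1, of hemogenic endothelium and also of mesenchyme, had 0.154 and 0.178 RPM at day 1, 3.84 and 3.13 RPM at day 5 and 17 and 15.9 RPM at day 8 (6.64 ± 0.33, adjusted p = 3.58e-07), and Lmo2, Cdh5 and Flt1 rose by 4.32, 4.36 and 3.68. Pecam1 and Tie1, endothelial surface genes, fell by 5.36 and 7.02, with Etv2 and Tek at -5.42 and -3.65. Of 7 tested definitive endoderm genes (of 12) 3 rose (1 without line 3 of del/del day 8 or line 1 of del/del day 1) and 2 fell, Trh and Hhex at -3.17 and -1.48.

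Chromatin genes fell more often than they rose, while over all tested genes 24.0% fell and 26.7% rose. In the DNA methylation list 10 of 19 fell and 4 rose (median -0.45). Tet1, the 5-methylcytosine oxidase of ES cells, had 54.3 and 51.2 RPM at day 1, 4.65 and 5.22 RPM at day 5 and 2.89 and 3.49 RPM at day 8 (-4.05 ± 0.18, adjusted p = 2.58e-07), and Dnmt3l, the cofactor of de novo methylation, and Dnmt3a fell by 3.66 and 1.05. Tet3 rose by 1.48 and the methyl-CpG binding genes Mbd2 and Mbd1 by 1.16 and 0.85. On the deposited scale these binding genes were not past the test (adjusted p = 0.0904 and 0.275). Of 33 polycomb genes 15 fell and 8 rose (median -0.35), and 5 rose without line 3 of day 1 or either day 8 library in del/del cells. Phc1, the Polyhomeotic subunit of ES cells, had 104 and 97 RPM at day 1, 23.4 and 16.3 RPM at day 5 and 13.1 and 12.3 RPM at day 8 (-2.98 ± 0.16, adjusted p = 4.28e-07), while its paralog Phc2 rose by 1.49. Jarid2 and Phf19, accessory subunits of PRC2, fell by 1.95 and 5.58. Others that rose were Yaf2 (2.47), Phc3 (1.47), Pcgf3 (0.86) and, with calls lost without single libraries, Cbx8 (2.18, or 1.45 without line 3 of del/del day 1, adjusted p = 0.0905 to 0.215), Phf1 (1.00, adjusted p = 0.0795 to 0.126) and Bmi1 (0.75, adjusted p = 0.0579 to 0.259). With a block for the line Bmi1 had an adjusted p of 0.0602.

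Of 18 tested SMC-related genes by limma none rose (0 also at an unadjusted p under 0.05) and 9 fell (median -0.73; 5 without line 1 of del/del day 8), Smc3 of cohesin by 1.14, Ncapd3 of condensin II by 1.60 and Ctcf by 0.99. Cell cycle and replication genes fell in 24 of 39 and rose in 5 (median -1.13). Mcm2 and Mcm5 of the replicative helicase fell by 1.02 and 1.42 and Cenpf of the kinetochore by 1.89. Ccnd2, a D-type cyclin, had 2.84 and 3.77 RPM at day 1, 22 and 37.5 RPM at day 5 and 85.3 and 95.3 RPM at day 8 (4.78 ± 0.28, adjusted p = 6.72e-07), and Ccnd1 rose by 1.30. The other 3 that rose were the inhibitors Cdkn2a, Cdkn1a and Cdkn1c, at 2.28, 1.64 and 1.00, and the call of Cdkn1c was lost without any one of the 4 del/del libraries (adjusted p = 0.0889 to 0.129).

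Of 17 genes around Lin28 and let-7 8 fell and 4 rose (median -0.58), beside 24.0% and 26.7% of all tested genes. Lin28a, which blocks let-7 processing in early cells, had 87.4 and 86.5 RPM at day 1, 45.9 and 64.3 RPM at day 5 and 9.39 and 8.79 RPM at day 8 (-3.26 ± 0.25, adjusted p = 2.69e-06), and its partner Trim71 fell by 2.06 and Mycn by 2.70. Hmga2, a chromatin protein that let-7 represses, went up throughout, with 2.43 and 2.2 RPM at day 1, 34.4 and 59.4 RPM at day 5 and 99.2 and 105 RPM at day 8 (5.46 ± 0.23, adjusted p = 2.46e-07), and Arid3a rose by 2.55. Both lines gave the same order of days for Lin28a and for Hmga2. Zcchc6, a terminal uridylyl transferase, and Igf2bp3 rose by 0.96 and 0.82, with Igf2bp3 not past the test without the line 1 library of del/del day 8 or day 1 (adjusted p = 0.0553 to 0.0981).

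Genes of the 2-cell-like state, a rare totipotent-like state within ES cultures, fell in 9 of 10 tested (of 24; median -4.40). Zscan4d had 0.353 and 0.203 RPM at day 8, against 8.24 and 6.3 RPM at day 1 (-4.75 ± 0.78, adjusted p = 0.000465); the Zscan4 genes are near-identical copies, so reads may be split among them. Germline and meiosis genes fell in 15 of 25 tested (of 34) and rose in 3 (median -1.31). Piwil2 and Tdrd12 of the piRNA pathway fell by 3.81 and 2.90. Prdm1, Rec8 and Brdt rose by 1.50, 1.88 and 1.72, and each of these 3 calls was lost without single del/del libraries (adjusted p = 0.0633 to 0.101, 0.0632 to 0.107 and 0.0586 to 0.123).

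The course in del/del cells was then set against the course in fl/fl cells, which shares no library with it. In fl/fl cells 3835 genes rose (27.3%) and 3985 fell (28.3%) between day 8 and day 1, in all 55.6% with a median of -0.07, a split that becomes 1364 and 6055 on the deposited scale, where the median fl/fl gene moves by -0.88. Of the genes that rose in del/del cells 2980 also rose in fl/fl cells (79.4% of the del/del list and 77.7% of the fl/fl list), and 16 fell there. Of those that fell in del/del cells 2665 also fell in fl/fl cells (78.9% of the del/del list and 66.9% of the fl/fl list), and 8 rose there. Across the 14063 genes the 2 sets of log2 differences had Pearson's r of 0.85 and Spearman's rho of 0.83, and genes are not independent replicates.

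The difference between the courses was tested for each gene. It was past the test for 2 genes with a higher change in del/del cells (0.0142%) and 1 with a lower change (0.00711%), together 0.0213%, and 2423 genes had an unadjusted p under 0.05. Wnt4 (chromosome 4, 137277489 to 137299726, mm10), a Wnt ligand of kidney and gonad mesenchyme, had 0.179 and 0.2 RPM at day 1, 2.67 and 2.19 RPM at day 5 and 22.2 and 21.7 RPM at day 8 in del/del cells, against 0.811 and 0.779 RPM at day 1, 2.29 and 3.89 RPM at day 5 and 3.37 and 1.24 RPM at day 8 in fl/fl cells (difference of the courses 5.49 ± 0.64, adjusted p = 0.0256). It started lower and ended higher in del/del cells, with no overlap between genotypes at day 1 or day 8. Mmp11 (chromosome 10, 75923222 to 75932502), a matrix metalloproteinase of stroma, had 8.09 and 9.52 RPM at day 1, 3.43 and 3.28 RPM at day 5 and 25.5 and 30 RPM at day 8 in del/del cells, against 9.33 and 9.07 RPM at day 1, 3.86 and 4.61 RPM at day 5 and 6.18 and 6.77 RPM at day 8 in fl/fl cells (2.16 ± 0.26, adjusted p = 0.0256). Aoah (chromosome 13, 20794119 to 21024252) had 17.4 and 16.2 RPM at day 1, 0.929 and 0.945 RPM at day 5 and 0.0235 and 0.0253 RPM at day 8 in del/del cells, against 17 and 14 RPM at day 1, 0.763 and 1.77 RPM at day 5 and 0.761 and 1.38 RPM at day 8 in fl/fl cells (-5.51 ± 0.64, adjusted p = 0.0256). The genotypes overlapped in Aoah at day 1 and day 5, and each del/del day 8 library held 1 read.

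With a block for the line each of the 3 had an adjusted p of 0.0553, and all 3 calls were lost without any one of the del/del day 8, del/del day 1 or fl/fl day 1 libraries. With line 1 of fl/fl day 8 left out, which leaves the shallowest library of the study alone in its group, 1615 genes were called higher and 768 lower. Among the genes next in p, none of which passed the test, were Epcam (-1.23 ± 0.19, adjusted p = 0.0725) and Cdh1 (-1.49 ± 0.26, adjusted p = 0.0936) with a deeper fall in del/del cells, and Tbx2 (4.84 ± 0.78, adjusted p = 0.0936) with a larger rise. At day 8 Epcam had 13.6 and 14.6 RPM in del/del cells, against 36.4 and 37.6 RPM in fl/fl cells. Cdh1 had 19.3 and 26 RPM in del/del cells, against 74.2 and 65.5 RPM in fl/fl cells, and Tbx2 had 24.9 and 36.4 RPM in del/del cells, against 4.17 and 1.52 RPM in fl/fl cells.

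**Figure D4:**
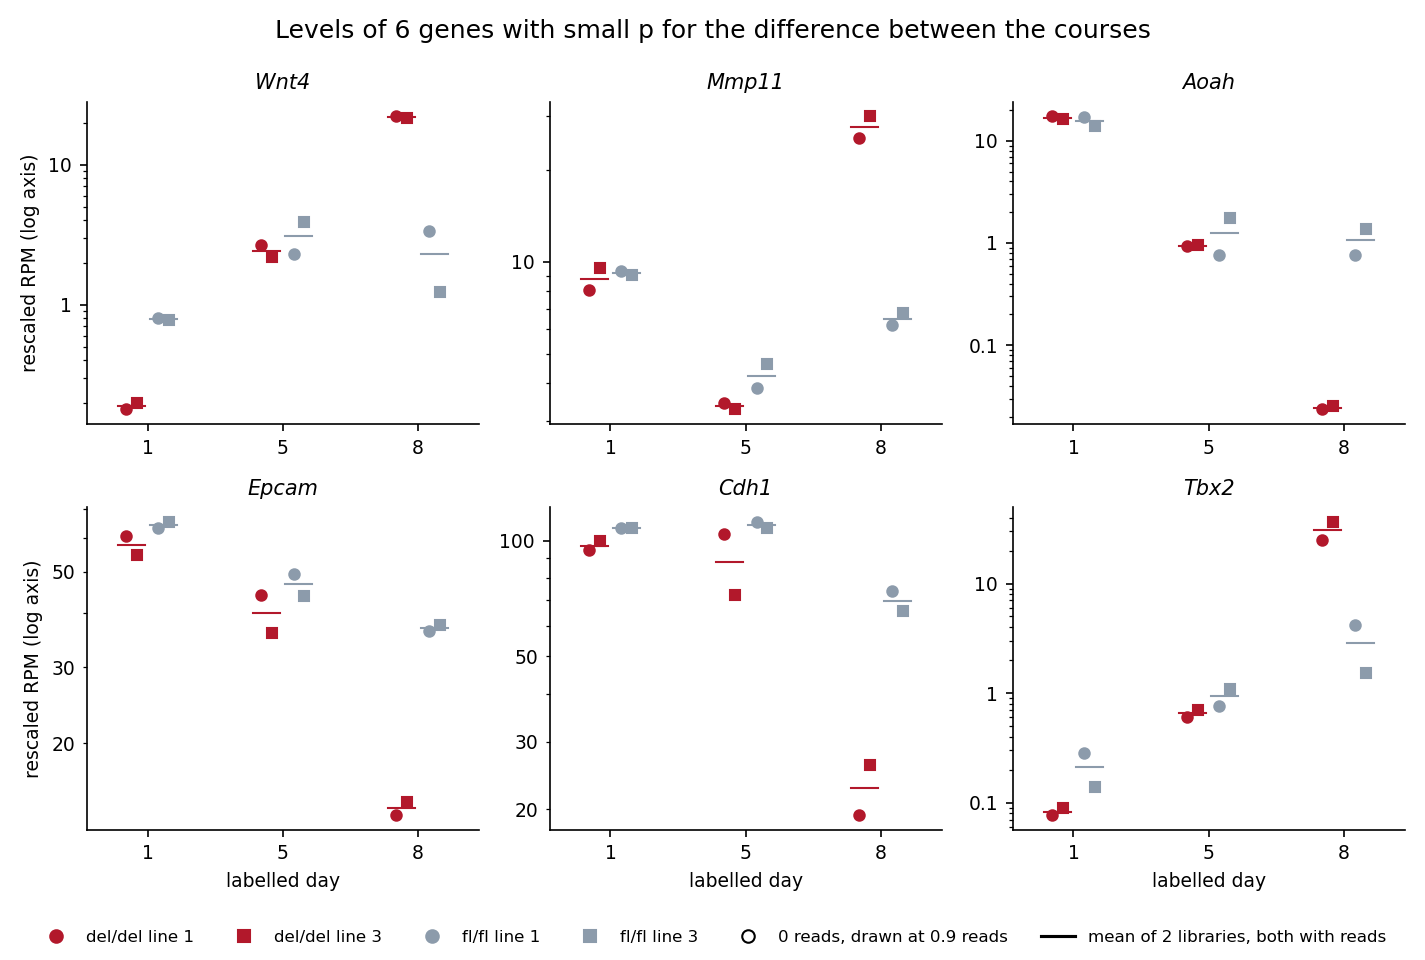
Rescaled RPM on a log axis for Wnt4, Mmp11, Aoah, Epcam, Cdh1 and Tbx2 in each library at labelled days 1, 5 and 8, with del/del cells in red to the left of fl/fl cells in grey, circles for line 1, squares for line 3 and bars for group means. At day 8 both del/del libraries lie outside the range of the fl/fl libraries in each panel, above it for Wnt4, Mmp11 and Tbx2 and below it for Aoah, Epcam and Cdh1.

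The lists can be set side by side in the same way, as a description. The Hox list had a median of 7.51 in del/del cells and 4.90 in fl/fl cells, and the matrix list 5.01 in del/del cells and 3.45 in fl/fl cells. For the epithelial list the median was -0.62 in del/del cells, where 14 genes fell, and 0.49 in fl/fl cells, where 8 fell. Naive genes had a median of -2.53 in del/del cells and -1.79 in fl/fl cells, and extraembryonic endoderm genes 2.17 in del/del cells and 4.06 in fl/fl cells. By limma none of the 767 tested members of the 43 lists passed the test of the difference between the courses, and 278 had an unadjusted p under 0.05. Of the 38 tested Hox genes 37 had a larger log2 difference in del/del cells than in fl/fl cells, 24 of them with an unadjusted p under 0.05, among them Hoxd12 at 5.32 ± 1.12, adjusted p = 0.103 and Hoxa11 at 1.87 ± 0.68, adjusted p = 0.219, beside 17.2% of all tested genes at that p in either direction. Of these 38, 20 had at most 3 reads over both del/del day 1 libraries. Many thus passed the filter on low values only through later libraries, so these Hox counts are a description.

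**Figure D5:**
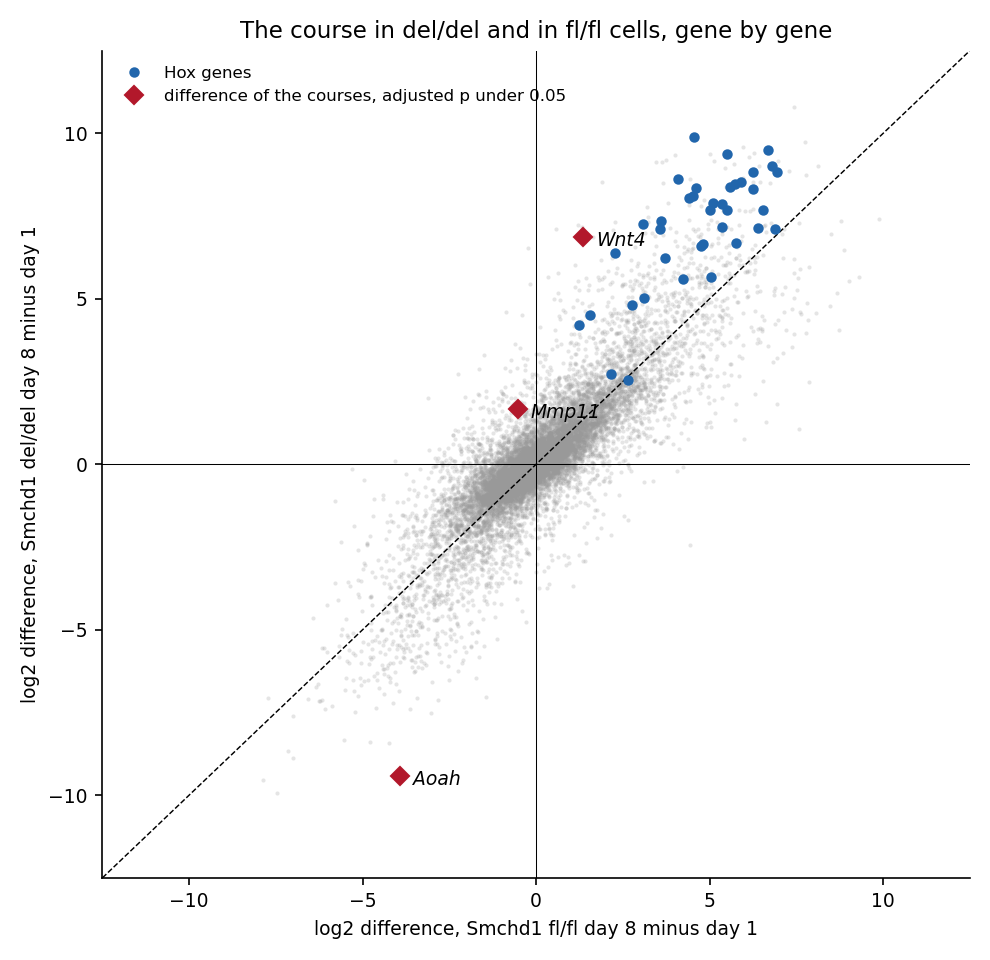
Log2 difference between day 8 and day 1 in del/del cells (vertical) against that in fl/fl cells (horizontal) for the 14063 tested genes in grey, with Hox genes in blue and the 3 genes whose difference between the courses had an adjusted p under 0.05 as red diamonds; the dashed line marks equal changes. The cloud of genes runs along the dashed line, and 37 of the 38 Hox points lie above it.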

How the data were processed

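RNA of 12 libraries (6 groups of 2) was measured by RNA-seq. The authors deposited 1 table of log2 reads per M reads for 25965 genes, and 12 of its columns matched the labels. Bcl2fastq, TopHat2 2.0.12, edgeR and build mm10 are named per the submitters' processing notes, without their roles. Taken out of log2, 100% of the deposited values were whole multiples of 1 read within 0.02, with 0 reads entered as 0.9 reads.

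Each library was rescaled by its median log ratio to the mean library over the 14053 genes read in all 12, and levels in RPM are on that scale. The 14063 genes whose deposited log2 value exceeded 0 in 2 or more libraries were fitted in limma 3.58.1 (R 4.3.3) with 6 group means and a trend, and p-values were adjusted by Benjamini and Hochberg over all of them. The fit had 6 residual and 4.84 prior degrees of freedom. The scripts were tested on simulated data. Numbers pair the samples, since the labels give both genotypes and all days from the same 2 ES lines. The line differences of del/del cells correlated across genes at 0.09 between days 1 and 8, 0.24 between days 5 and 8 and 0.09 between days 1 and 5.

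The 43 gene lists and the members were chosen with earlier results of these data known. Genes are named by rule: Smchd1, the 12 largest rises and falls (adjusted p under 0.05, at least 50 reads in each library of the higher group, groups not overlapping), any gene of the Hox, pluripotency, streak and presomitic lists, of every other list the 6 smallest p-values and the called members against its majority, and 8 genes a direction for the difference of the courses. Myl3, with the other motif matches, is named for its promoter. A fold against a group with 0 reads uses a floor of 3 reads per library. A few members that the rule names are not reported here. Intervals and floors cover counting error only. For 23 alternatives, 12 of them leaving out 1 library, every value was computed again. Gene positions are those of the deposited table, and exon overlaps come from GENCODE M21, which holds 87.5% of its genes by name.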

Additional observations from a re-analysis of the deposited data

Results flagged for a closer look

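The change over the course differed between del/del and fl/fl cells for 3 genes by limma's test of that difference. Wnt4 rose more in del/del cells, by 5.49 on the log2 scale (adjusted p = 0.0256), and Mmp11 by 2.16 (adjusted p = 0.0256). Aoah fell further in del/del cells, with a difference of -5.51 (adjusted p = 0.0256). Over the alternatives Wnt4 was past the test in 11 of 21 (adjusted p = 0.000547 to 0.234), Mmp11 in 10 of 21 (0.00243 to 0.251) and Aoah in 10 of 21 (0.00137 to 0.251), and the sign did not change in any of them. Both day 8 libraries of each genotype showed the direction in all 3 genes. The genes were picked by the test on these same libraries, so this is a description and no separate support. The shallow line 3 library of fl/fl day 8 (1.51 M gene reads) enters each of them, and without it the adjusted p of Mmp11 and of Aoah was 0.05 while Wnt4 stayed past the test. Leaving out either fl/fl day 5 library ended the calls of Wnt4 and Mmp11 (adjusted p = 0.0563 and 0.0577).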

How the results depend on the processing

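On the deposited scale the whole del/del course had 2000 higher and 1877 lower genes in place of 3755 and 3379, and under the other alternatives with all libraries both counts stayed within 1.5 times. On that scale the fl/fl course had 1364 higher and 6055 lower genes, day 5 minus day 1 in del/del cells 826 and 4928, and day 8 minus day 5 51 lower genes. Array weights gave 486 higher and 290 lower genes for day 8 minus day 5. For the difference of the courses (2 higher, 1 lower), quantile normalization gave 7 and 4, log2(RPM + 1) 142 and 26, voom on the recovered reads 1 and 0, array weights 30 and 12, the deposited scale 0 lower and the block for the line 0 and 0. The cause of these moves was not tested. With 1 library left out the difference had 0 to 1615 higher and 0 to 768 lower genes, day 5 minus day 1 had 1394 to 3341 lower genes, and day 8 minus day 5 had 226 to 1551 higher and 129 to 1294 lower genes. The extremes came without line 1 or line 3 of fl/fl day 8 (high) and without a library of the days compared (low), and the whole course had 2887 to 4093 higher and 2276 to 3932 lower genes. On the deposited scale the counts of rises became 1 for DNA methylation, 8 for FGF-ERK feedback, 2 for Lin28 and let-7, 4 for p53 targets and 3 for polycomb and for trophoblast genes, and the counts of falls became 3 for cholesterol synthesis, 4 for the Atf4 branch, 2 for p53 targets and 8 for polycomb. Among genes named above, the deposited scale ended those of Klf5, Etv4, Lef1, Cdx4, Notch1, Myl4, Acvr2b, Rarg, Esx1, Mbd2, Mbd1, Prdm1, Rec8, Brdt, Cdkn1c, Pbx2, Pbx4, Zcchc6, Igf2bp3, Pcgf3, Phc3, Phf1, Cbx8 and Bmi1. On the log2(RPM + 1) scale Cdx4, Foxa2, Msgn1, Tbx6, Rspo3, Myl3, Sox17 and Tpbpa were lost. By quantile normalization Klf5, Tbx6, Rspo3, Sox17, Prdm1, Brdt, Phf1 and Bmi1 were lost, and by voom Cdx4, Foxa2, Tbx6, Rspo3, Myl3 and Sox17. With a block for the line Lef1, Bmi1, Peg3 (adjusted p = 0.0509) and the 3 genes of the difference were lost. No other call of a named gene changed with that block. With the 6 del/del libraries alone Notch1, Dcn, Sox17, Myl3, Pbx4 and Bmi1 were lost (adjusted p = 0.0536 to 0.073). Without a filter Bmi1 was lost (adjusted p = 0.053). No gene called in the whole course turned its direction. Reads per library of 1.51 to 8.67 M limit what can be said of genes with few reads.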

Other observations

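Interferon-stimulated and antigen presentation genes rose in 17 of 25 tested (of 27) in del/del cells and fell in 3, with a median of 1.71. In fl/fl cells 18 rose and 3 fell, with a median of 2.46. B2m, the light chain of MHC class I, had 3.1 and 4.04 RPM at day 1, 19.8 and 17.6 RPM at day 5 and 18.4 and 17.3 RPM at day 8 in del/del cells (2.33 ± 0.19, adjusted p = 3.76e-06), and Tap1, the peptide transporter, had 3.89 and 3.75 RPM at day 1, 13.5 and 11 RPM at day 5 and 12.8 and 12.3 RPM at day 8 (1.71 ± 0.17, adjusted p = 1.87e-05). Both reached their day 8 level by day 5. Usp18, a negative regulator of the interferon receptor, had 3.11 and 2.66 RPM at day 8, against 0.0512 and 0.0444 RPM at day 1 (5.91 ± 0.52, adjusted p = 6.82e-06). Against the majority Ddx58 (RIG-I), Ifitm3 and Ifitm1 fell by 1.62, 0.86 and 1.80, and Ifitm1 was not past the test without line 1 of del/del day 1 or line 3 of del/del day 8 (adjusted p = 0.0701 to 0.0755) and Ifitm3 on the deposited scale (adjusted p = 0.0785). With a filter above 1 in 2 libraries, 11 genes were counted as higher.

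Of 43 tested imprinted genes (of 54) 15 rose and 12 fell in del/del cells (median 0.25), beside 26.7% and 24.0% of all tested genes, and 7 fell without line 1 of del/del day 1. Airn, the long RNA antisense to Igf2r, had 1.33 and 1.2 RPM at day 1, 8.24 and 10.2 RPM at day 5 and 12.8 and 12.9 RPM at day 8 (3.35 ± 0.22, adjusted p = 1.36e-06), and Igf2r had 26.5 and 25.3 RPM at day 1, 52.4 and 40.2 RPM at day 5 and 74.9 and 83.1 RPM at day 8 (1.61 ± 0.18, adjusted p = 3.54e-05). Snrpn, a spliceosome gene, had 47.8 and 43.6 RPM at day 1, 18.1 and 15.1 RPM at day 5 and 11.3 and 10.5 RPM at day 8 (-2.07 ± 0.17, adjusted p = 4.16e-06), and Snurf, which lies within the same transcript, cannot be told from it. Without strand, reads of Airn and Igf2r cannot be told apart where they overlap. Of 58 clustered protocadherins 3 were tested and rose, Pcdhga11 by 1.92, Pcdhb22 by 4.61 and Pcdhac1 by 2.70, and exons of Pcdhga11 overlap other genes over 73.6% of their length.

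Of 22 tested p53 targets 9 rose and 7 fell (2 to 4 fell without either del/del day 1 library or line 3 of del/del day 8), with Cdkn1a at 1.64 and Trp53 itself at -1.20. Cholesterol synthesis genes fell in 11 of 23 tested and rose in 1, but fell in 5 without line 1 of del/del day 1 or line 3 of del/del day 8, with Pmvk at -1.08. Stress response genes of the Atf4 branch rose in 4 of 23 and fell in 8 (4 without line 1 of del/del day 1 and 5 without line 3 of del/del day 8), led by the amino acid transporter Slc7a3, which had 4.99 and 5.34 RPM at day 8, against 55.8 and 54.3 RPM at day 1 (-3.41 ± 0.17, adjusted p = 3.58e-07). Of 22 chaperone genes 4 rose and 4 fell (2 without line 1 of del/del day 1), and of 32 glycolysis and hypoxia genes 8 rose and 4 fell (1 without line 1 of del/del day 8 or either del/del day 1 library), with a median of 0.13 that became -0.07 on the deposited scale. Over all tested genes the shares were 26.7% higher and 24.0% lower.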
